A study of Homo sapiens with 6 samples.

Results

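Transcripts of 10 genes were examined that encode subunits of the transcription factor AP-1 and its small MAF relatives: FOS, FOSB, FOSL1, FOSL2, JUN, JUNB, JUND, ATF3, MAFF and MAFK. They were taken by symbol from a table of 15376 coding genes, and all 10 were found. The samples were gefitinib-treated cells, which received 1 µM gefitinib for 6 h, and control cells, which received the vehicle DMSO, with 3 RNA sequencing libraries in each group. All were PC9ER cells, an established human line of non-small cell lung cancer that depends on the receptor kinase EGFR and resists gefitinib, an inhibitor of that kinase. Serum is recorded at 10% for all 6 samples. The labels give 1 protocol text for all samples, in which vehicle for 72 h was followed by a night without serum and then gefitinib. Whether control cells were also without serum is not stated for them separately, so effects of serum and of gefitinib cannot be told apart in any comparison here. Nothing in the labels says that the libraries of a group came from separate cultures, so p-values measure the spread between these libraries, which may be technical.

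AP-1 is a dimer of proteins with a basic DNA-contact region and a leucine zipper (bZIP proteins). JUN proteins can pair with each other or with FOS proteins, FOS proteins need a JUN partner, and ATF3 pairs with JUN proteins and often represses. Small MAF proteins such as MAFF and MAFK have no activation domain of their own and act with partners such as NRF2 and BACH1. Growth factor receptors act on this family through ERK and JNK kinases, which switch on FOS and JUN family genes and stabilise their proteins, and in many carcinoma cells FOSL1 is a long-lived output of ERK.

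Coding reads per library ranged from 13674237 to 38581498 in gefitinib libraries and from 16211544 to 25639050 in control libraries, and every library had been scaled by the authors to a common total. Values below are these normalised read counts. Control replicate 1 stood apart from control replicates 2 and 3 in a way that followed GC content. Of 11688 genes with a mean of 10 or more and GC content matched by symbol, 43.1% had their lowest control value in that library. Among those with at least 60% GC, 92.9% did. Summed epithelial markers (7 of 8 with reads) lay between 60060 and 62810 in gefitinib libraries and between 70770 and 97270 in control libraries. Markers of blood, fibroblast and endothelial cells (8 of 10 with reads) summed to between 226.8 and 255 in gefitinib libraries and between 1248 and 1444 in control libraries. The endothelial marker PECAM1 was the largest part of that sum in every library, and the blood marker PTPRC was at or under 1.32. Whether these shifts bear on the values below was not tested, and in bulk RNA a change in some cells and a change in all cells cannot be told apart.

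Promoters are shown for 5 genes chosen because they were called higher with gefitinib, with log2 differences from 0.54 (JUND) to 3.34 (ATF3). Whether these genes share regulation was not tested. The promoters are RefSeq sequences of GRCh38.p14, matched by symbol for 8 of the 10 genes. Each is read 5′ to 3′ on the gene's strand. Each is limited to the bases upstream of the RefSeq start that lie in no GENCODE exon. Capitals mark the cyclic AMP response element (CRE) TGACGTCA, its core TGACG on either strand, and the variant TGACATCA. The windows are FOS at chr14:75278618-75278773 on the plus strand, FOSB at chr19:45467786-45467994 on the plus strand, ATF3 at chr1:212565197-212565333 on the plus strand, JUNB at chr19:12791276-12791485 on the plus strand and JUND at chr19:18281623-18281832 on the minus strand.
FOS: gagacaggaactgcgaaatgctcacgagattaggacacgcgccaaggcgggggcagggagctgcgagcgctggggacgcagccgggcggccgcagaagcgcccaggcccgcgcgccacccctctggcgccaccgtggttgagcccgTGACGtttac
FOSB: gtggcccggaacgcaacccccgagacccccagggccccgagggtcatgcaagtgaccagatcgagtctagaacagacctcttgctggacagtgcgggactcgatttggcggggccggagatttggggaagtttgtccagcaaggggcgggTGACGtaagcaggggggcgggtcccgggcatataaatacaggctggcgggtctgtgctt
ATF3: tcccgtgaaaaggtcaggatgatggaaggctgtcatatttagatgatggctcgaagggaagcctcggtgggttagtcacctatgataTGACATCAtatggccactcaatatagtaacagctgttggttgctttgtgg
JUNB: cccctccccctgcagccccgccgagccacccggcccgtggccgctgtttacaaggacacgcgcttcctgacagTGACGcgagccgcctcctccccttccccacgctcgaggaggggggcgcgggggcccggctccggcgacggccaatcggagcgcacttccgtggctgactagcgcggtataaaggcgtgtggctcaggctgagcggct
JUND: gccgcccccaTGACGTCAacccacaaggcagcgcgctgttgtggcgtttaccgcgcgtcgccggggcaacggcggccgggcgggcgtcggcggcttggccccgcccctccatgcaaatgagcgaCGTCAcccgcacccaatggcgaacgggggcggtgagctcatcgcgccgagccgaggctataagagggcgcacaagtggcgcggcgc
The core began at position -64 of FOS and -60 of FOSB, counted from the RefSeq start, and at -137 of JUNB. JUND held the complete CRE at -200 and a further core at -86. MAFF held the complete CRE at -54 of the promoter that starts at 38201994, and its other listed promoter held none of these sequences. Neither is shown, because neither holds a long run outside annotated exons. ATF3 held no core in its first listed promoter but the variant at -123, a sequence that the JUN promoter also carried, at -67. The other listed ATF3 window, at chr1:212614808-212615017, lies inside the gene and held none of these sequences. Whether it acts as a promoter was not tested, and ATF3 starts outside the listed windows were not searched. The core was not limited to genes that were higher: FOSL2 held it at -201 and -66 and JUN at -123, and both were lower with gefitinib. Over all 35116 promoters of 300 bases in the table, searched on both strands, 24.6% held the core, 1.85% the complete CRE and 2.61% the variant, and every complete CRE also counts as a core. The AP-1 site TGANTCA, present in 7.71% of promoters, was found in FOSL2 alone among the 8 genes matched, at position 5 after the start. That pattern does not cover the variant TGACATCA, which JUN carried at -67, so other forms of AP-1 site were not counted. These are matches of letters and do not show binding.

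The comparison of gefitinib with control cells asks how transcripts of AP-1 subunits differ after hours with an EGFR inhibitor. With gefitinib 6 of the 10 genes rose (FOS, FOSB, ATF3, JUNB, JUND and MAFF), 2 fell (FOSL2 and JUN) and FOSL1 and MAFK did not pass the test. Calls are from limma, 2-sided, on log2(value + 1), at a Benjamini-Hochberg adjusted p under 0.05 over the 15229 genes tested. Over the whole transcriptome, 28.3% of genes were called higher and 22.8% lower, 51.1% in either direction, so 8 calls among 10 genes stand beside a background in which most genes were called. A rise of at least 2-fold was called for 4 of the 10 (ATF3, FOSB, FOS and JUNB), against 12.4% of all genes. By edgeR's quasi-likelihood test on reads recovered from the table, 6 were also higher and 2 lower. The median log2 difference was 0.42 over the 10 genes and 0.10 over all genes tested. Gefitinib and control values were fully separate for 8 of the 10 genes, against 58.0% of all genes.

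**Figure D1:**
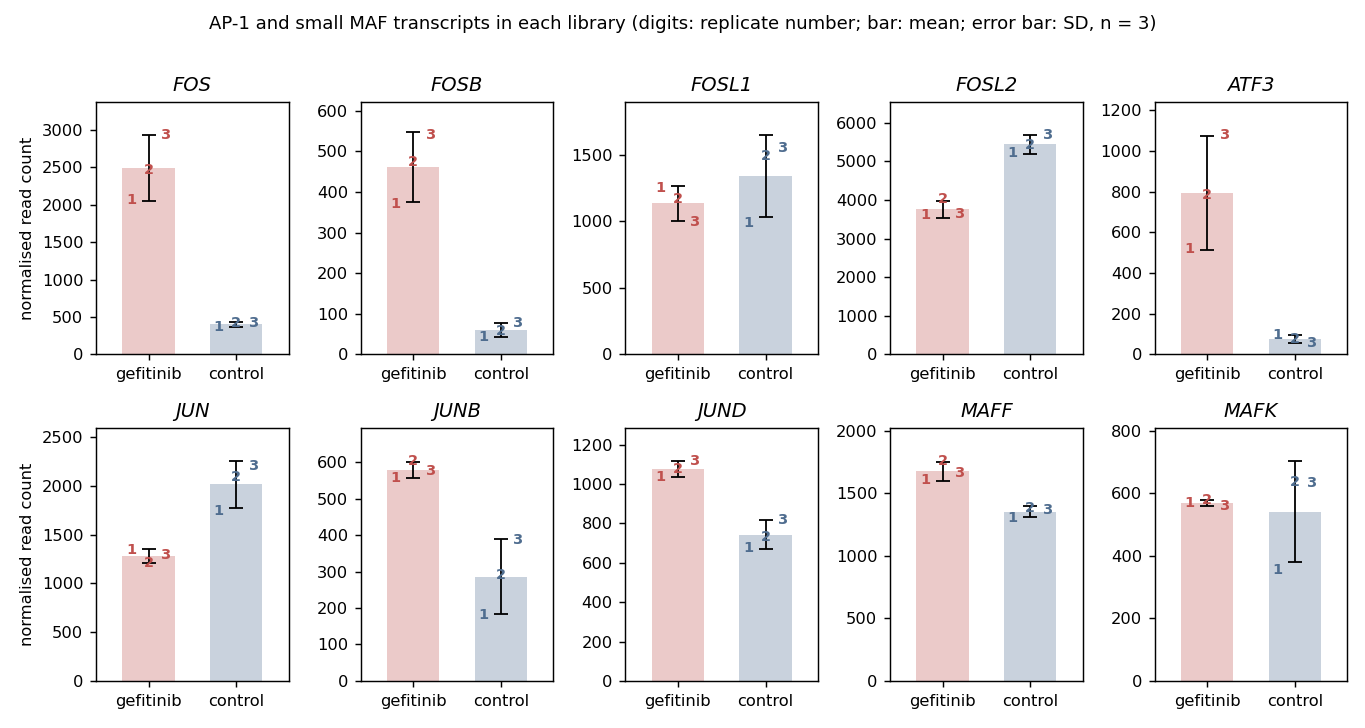
Normalised read counts (vertical axis, starting at 0) of the 10 AP-1 and small MAF genes in gefitinib (left, red) and control (right, blue) libraries; digits give the replicate number, bars the mean and error bars the SD (n = 3). Groups are separate for FOS, FOSB, FOSL2, ATF3, JUN, JUNB, JUND and MAFF and overlap for FOSL1 and MAFK, where control replicate 1 lies low.

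Among the FOS family genes, FOS and FOSB, the early-response members with short-lived products, rose. FOS, the founding member (ENSG00000170345, chromosome 14, 75278774 to 75282230, GRCh38), had 2063, 2466 and 2937 normalised reads in gefitinib libraries 1 to 3, against 368.2, 425.0 and 423.8 in control libraries 1 to 3. The lowest gefitinib library stood far above the highest control library. The log2 difference was 2.60 ± 0.13 (SE), a 6.07-fold rise with a 95% interval from 4.92 to 7.49 (limma adjusted p = 1.57e-06), and 98.4% of tested genes had a smaller difference. FOSB, a close relative that also yields a truncated splice form not separated in gene-level counts (ENSG00000125740, chromosome 19, 45467995 to 45475179), had 370.3, 473.5 and 541.4 in gefitinib libraries, against 43.73, 58.01 and 77.22 in control libraries. The groups did not overlap, and the difference was 2.95 ± 0.24 (limma adjusted p = 1.30e-05), 7.74-fold with an interval from 5.32 to 11.2. Gefitinib replicate 1 was the lowest and replicate 3 the highest of the treated libraries for both genes.

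The FRA proteins, longer-lived FOS relatives, did not share that rise. FOSL2, which encodes FRA-2 (ENSG00000075426, chromosome 2, 28392448 to 28417312), had 3616, 4018 and 3622 normalised reads in gefitinib libraries, against 5200, 5413 and 5689 in control libraries. Every gefitinib library was below every control library, and FOSL2 fell by 0.54 (SE 0.08, log2 scale; limma adjusted p = 0.000385). FOSL1, which encodes FRA-1 (ENSG00000175592, chromosome 11, 65892049 to 65900573), had 1247, 1170 and 991.4 in gefitinib libraries, against 987.6, 1489 and 1550 in control libraries. The gefitinib values lay between control replicate 1 and the other controls. Its log2 difference was -0.22 with a 95% interval from -0.60 to 0.17 (limma adjusted p = 0.320), so a fall to 0.658 of the control level and a rise to 1.12 times it are both inside the interval. Without control replicate 1 FOSL1 was called lower, at -0.43 (limma adjusted p = 0.0197). Removal of the GC trend also gave a call, at -0.27 (limma adjusted p = 0.0442).

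ATF3, a stress-induced member of the ATF and CREB proteins (ENSG00000162772, chromosome 1, 212565334 to 212620777), had the largest difference of the 10 genes. It had 517.1, 783.5 and 1081 normalised reads in gefitinib libraries, against 96.64, 76.98 and 55.02 in control libraries. The groups were far apart, while the gefitinib libraries differed among themselves by more than for any other member, with a coefficient of variation of 35.6% against 17.6% for FOS and 18.7% for FOSB. The rise was 3.34 on the log2 scale (SE 0.29; limma adjusted p = 1.81e-05), 10.1-fold with a 95% interval from 6.45 to 15.8. As for FOS and FOSB, gefitinib replicate 1 was lowest and replicate 3 highest. This order was not particular to them: JUND shared it, and gefitinib replicate 1 was lowest for 7 of the 10 genes. Coding reads also rose from gefitinib replicate 1 to replicate 3, and whether depth bears on the order was not tested. The differences of FOS, FOSB and ATF3 between the groups were larger than the spread among gefitinib libraries.

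The JUN genes, each a single exon in the annotation, moved in both directions. JUN (ENSG00000177606, chromosome 1, 58780788 to 58784327), a strong activator and a target of JNK, had 1345, 1209 and 1290 normalised reads in gefitinib libraries, against 1748, 2092 and 2211 in control libraries. It was lower in every gefitinib library and fell by 0.65 (SE 0.10, log2 scale; limma adjusted p = 0.000699). JUNB (ENSG00000171223, chromosome 19, 12791496 to 12793315), a weaker activator that can restrain JUN, had 558.1, 603.7 and 575.6 in gefitinib libraries, against 182.0, 290.1 and 387.1 in control libraries. The groups did not overlap and the control libraries were spread widely, with a coefficient of variation of 35.8% against 3.96% in gefitinib libraries. JUNB rose by 1.08 ± 0.24 (limma adjusted p = 0.00411). JUND (ENSG00000130522, chromosome 19, 18279760 to 18281622), the member usually least dependent on growth factors, had 1038, 1075 and 1117 in gefitinib libraries, against 675.8, 731.8 and 819.5 in control libraries. Its groups did not overlap either, and it rose by 0.54 ± 0.10 (limma adjusted p = 0.00168).

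Of the JUN family calls, that of JUNB was lost when single libraries were left out. Its limma adjusted p was 0.0578 without gefitinib replicate 2 and 0.0693 without gefitinib replicate 3, with differences of 1.05 and 1.08. Exons of JUNB share 259 bases, 14.2% of their length, with exons of HOOK2 on the opposite strand, and the sources used here do not give whether counting used strand. HOOK2, which encodes a microtubule linker, had 602.6 ± 39.99 normalised reads in gefitinib and 1301 ± 149 in control libraries (SD, n = 3) and fell by 1.11 ± 0.11 (SE; limma adjusted p = 4.55e-05), the direction opposite to JUNB.

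The small MAF genes had small measured differences, and only MAFF was called in the reported fit. MAFF (ENSG00000185022, chromosome 22, 38200767 to 38216511) had 1603, 1759 and 1664 normalised reads in gefitinib libraries, against 1305, 1386 and 1368 in control libraries. The groups did not overlap, and MAFF rose by 0.31 (SE 0.08, log2 scale; limma adjusted p = 0.0103), 1.24-fold with a 95% interval from 1.09 to 1.40. The MAFF call was lost when the GC trend was removed (difference 0.28, limma adjusted p = 0.112) and by DESeq2 on the recovered reads (0.24, adjusted p = 0.0520). MAFK (ENSG00000198517, chromosome 7, 1530714 to 1543043) had 568.7, 577.5 and 560.2 in gefitinib libraries, against 354.1, 638.1 and 632.3 in control libraries. All gefitinib values fell between control replicate 1 and the other controls, and the difference of 0.12 had an interval from -0.35 to 0.59 (limma adjusted p = 0.658). Without control replicate 1 the MAFK difference was -0.16 (limma adjusted p = 0.0776), so its sign depended on that library. MAFK exons share 18.2% of their length with TMEM184A on the opposite strand. Their paralogue MAFG, the remaining small MAF gene, had 835.9, 1000 and 788.9 in gefitinib libraries, against 998.8, 1132 and 1030 in control libraries. Its groups overlapped by a single pair of libraries, and the difference was -0.27 ± 0.11 (limma adjusted p = 0.0692, and 0.0298 with TMM factors).

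**Figure D2:**
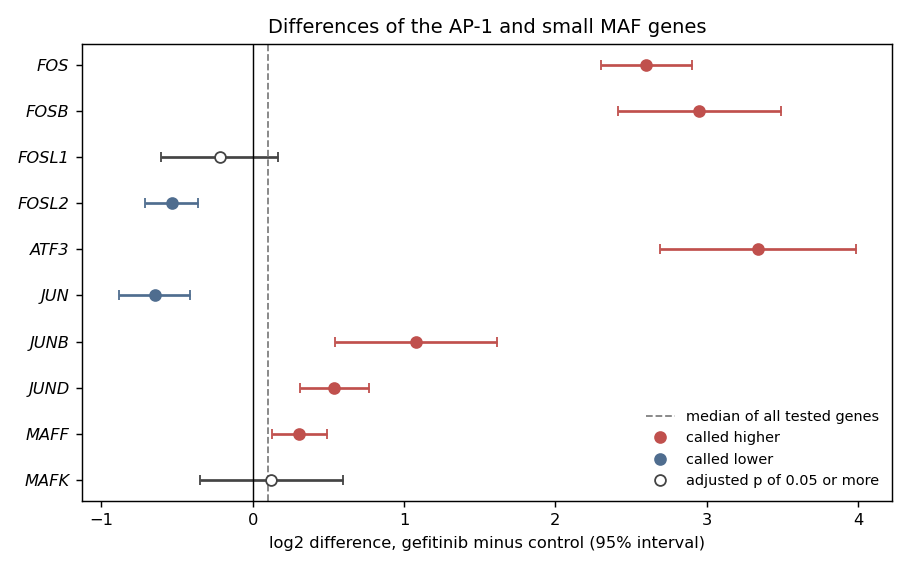
Log2 difference between gefitinib and control libraries (horizontal axis) for each gene, with its 95% interval; filled red points were called higher, filled blue points lower, and open points had a limma adjusted p of 0.05 or more. ATF3, FOSB and FOS lie between 2.60 and 3.34, and the other calls between -0.65 and 1.08; the dashed line is the median of all tested genes, 0.10.

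The spread among controls moved with GC content. Control replicate 1 held the lowest control value for 9 of the 10 genes, among them each of the 5 with at least 60% GC (JUND, JUNB, MAFK, MAFF and FOSL1). The exception was ATF3, which at 46.7% had the lowest GC content of the 10 and its highest control value in that library. Set against the mean of control replicates 2 and 3, control replicate 1 differed on the log2 scale by -0.88 for JUNB, -0.84 for MAFK, -0.62 for FOSL1 and -0.60 for FOSB. The median of all genes was -0.69 between 60% and 65% GC and 0.24 between 30% and 40% GC. JUND and MAFF, at -0.20 and -0.08, departed less from the other controls than most genes of their GC content, and ATF3, at 0.56, was higher than most. Without control replicate 1, 6 members were called higher and 3 lower. The difference of JUNB was then 0.79 (limma adjusted p = 0.00541), and removal of the GC trend from all 6 libraries made it 1.04 (limma adjusted p = 6.58e-06).

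**Figure D3:**
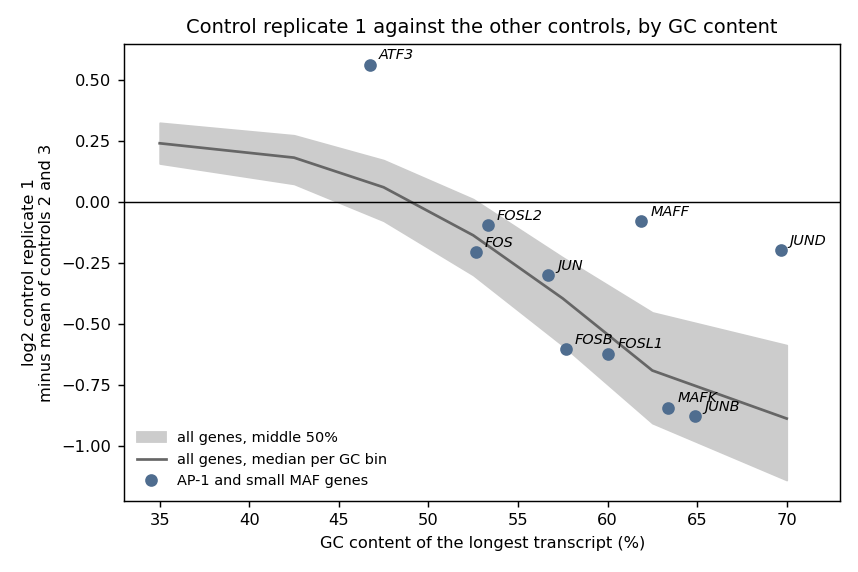
Control replicate 1 minus the mean of control replicates 2 and 3 on the log2 scale (vertical axis). The horizontal axis is the GC content of the longest transcript. Points are the 10 genes. The line is the median of all genes with a mean of 10 or more and GC content matched by symbol, and the band is their middle 50%. JUNB and MAFK, near -0.88 and -0.84, follow the line, while ATF3, MAFF and JUND lie above the band.

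Divided by the length of their exons, the transcripts changed places within the FOS and JUN families, while the small MAF genes kept their order of mean shares. These are levels of normalised reads per kb of exon, given as a description with no test, and transcript shares say nothing of protein or of dimers. FOS made up 34.1%, 37.6% and 44.6% of the summed FOS family level in gefitinib libraries 1 to 3, against 8.29%, 7.78% and 7.43% in control libraries 1 to 3. FOSL2 made up 27.0%, 27.7% and 24.9% in gefitinib libraries, against 53.0%, 44.8% and 45.1% in control libraries, and the shares of the groups were separate for both genes. FOSL1 averaged 30.6 ± 4.77% in gefitinib and 43.9 ± 4.94% in control libraries (SD, n = 3), and FOSB averaged 4.19 ± 0.612% in gefitinib and 0.661 ± 0.114% in control libraries. The summed level of the FOS family was 1978 ± 93.7 per kb in gefitinib and 1607 ± 207 in control libraries. In the JUN family, JUN averaged 28.8 ± 1.64% in gefitinib and 50.7 ± 1.59% in control libraries, and JUNB averaged 25.3 ± 1.06% in gefitinib and 13.7 ± 3.11% in control libraries. JUND averaged 45.9 ± 1.03% in gefitinib and 35.6 ± 2.03% in control libraries. JUND was thus the leading JUN transcript per length in gefitinib libraries and JUN in control libraries. The summed JUN family level was 1258 ± 19.2 per kb in gefitinib and 1126 ± 161 in control libraries, with overlapping groups. Within the small MAF family MAFF led in both groups, at 50.3 ± 1.23% in gefitinib and 42.9 ± 2.92% in control libraries. Lengths matter for these shares: without a length correction FOSL2 led the FOS family in both groups, at 47.9% in gefitinib and 75.2% in control libraries, and JUN led its family in both, at 43.6% in gefitinib and 66.3% in control libraries.

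**Figure D4:**
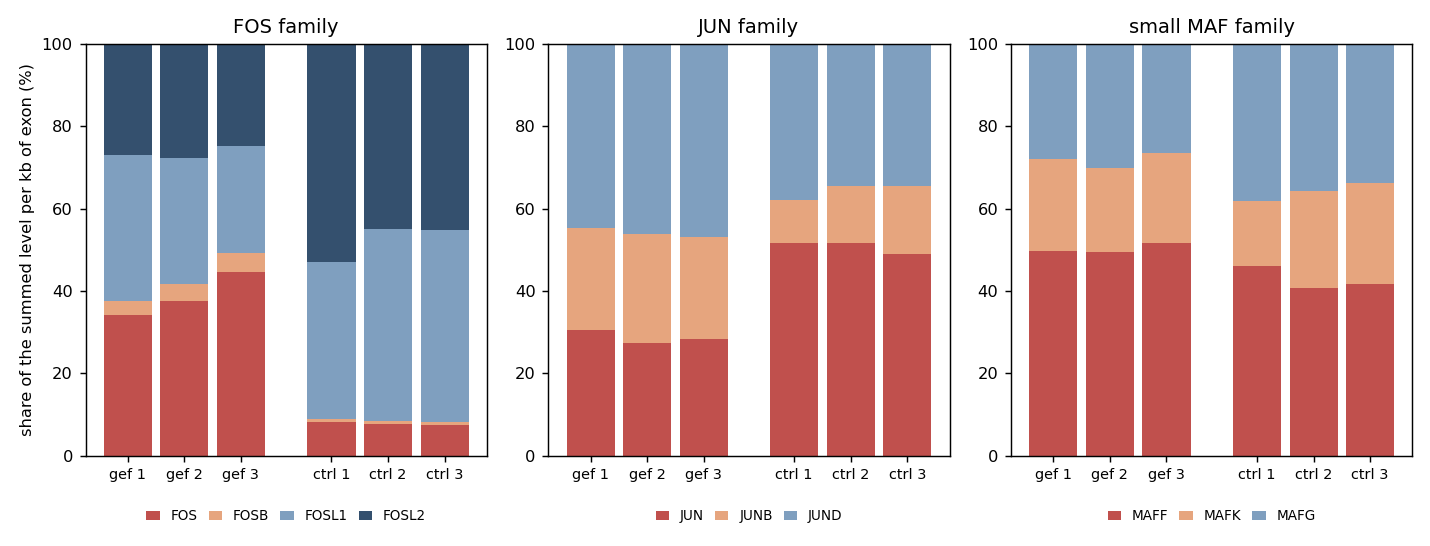
Share of each gene (vertical axis, %) in the summed level per kb of exon of the FOS, JUN and small MAF families, with 1 bar for each library, gefitinib (gef) left and control (ctrl) right. FOS takes between 34.1% and 44.6% of its family in gefitinib libraries and between 7.43% and 8.29% in control libraries, and JUND and JUN change places as the largest JUN family share.

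Across the 10 genes and MAFG, FOS stood first in mean level per kb in gefitinib libraries, at 769 ± 135 (SD, n = 3). By mean it stood eighth in control libraries, at 125 ± 10.0. In gefitinib library 1 FOSL1 was above FOS, with 35.3% of the FOS family against 34.1%. Next in gefitinib libraries came FOSL1 at 602 ± 69.5, JUND at 578 ± 21.04 and FOSL2 at 524 ± 32.2, each with a range that overlapped that of its neighbour in the order. JUN at 362 ± 19.3 and JUNB at 318 ± 12.6 followed with separate ranges, and JUNB and MAFF, at 298 ± 14.1, overlapped. In control libraries FOSL2 had the highest mean, at 759 ± 34.3, and the range of FOSL1, at 711 ± 164, overlapped it. Only control replicate 1 had FOSL2 above FOSL1. In control replicates 2 and 3 FOSL1 made up 46.78% and 46.65% of the FOS family, against 44.82% and 45.13% for FOSL2. JUN at 570 ± 68.0 overlapped FOSL1. FOSB was last in both groups, at 83.2 ± 15.5 per kb in gefitinib and 10.7 ± 3.03 in control libraries, so that even after its 7.74-fold rise it stayed below MAFK, at 128 ± 1.94 in gefitinib libraries. ATF3 had 197 ± 69.9 per kb in gefitinib and 18.9 ± 5.15 in control libraries. This order rests on the joined length of all exons and was not repeated with other lengths. The longest transcript is 2103 bases for ATF3 against 4040 for all exons, and 3284 for MAFF against 5615. For JUN, JUNB and JUND these lengths are equal, so the places of ATF3 and MAFF beside them depend on the length used.

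Other bZIP genes that can pair with these proteins held calls in both directions. Of 17 listed partners 15 were tested: 5 rose, 5 fell and 5 were not called, with a median log2 difference of -0.09, beside 28.3% of all genes called higher and 22.8% lower. NFE2L3, a relative of NRF2, fell by 1.12 ± 0.11 (SE) on the log2 scale, with 2468 ± 195 normalised reads in gefitinib and 5375 ± 771 in control libraries (SD, n = 3; limma adjusted p = 3.91e-05). BACH1, a repressor that pairs with small MAF proteins, fell by 0.93 ± 0.13, with 1504 ± 135 in gefitinib and 2881 ± 502 in control libraries. BATF, a partner of JUN proteins best known from lymphocytes, and NFE2L1, a regulator of proteasome genes, fell by 0.66 and 0.30. The NFE2L1 groups overlapped, and its limma adjusted p was 0.0484. ATF7 and BACH2 rose, by 0.30 and 0.53. The other genes called, named after their values were seen, were rare transcripts: MAFA, BATF3 and NFE2, which rose, and NRL, which fell. MAFA, a large MAF factor of pancreatic beta cells, had 37 reads in the gefitinib libraries together and 0 in the control libraries. Against a floor of 3 reads over the control group, scaled for depth, that is 10.3-fold. This value makes no allowance for the spread among gefitinib libraries. Of the genes with a mean of 10 or more, 2 partners rose and 5 fell.

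Of 21 listed regulators of AP-1, among them kinases and transcription factors, 5 rose, 6 fell and 10 did not pass, with a median log2 difference of 0.00. These 11 calls are near the background of 51.1% of all genes and are not read as a result about the list. MAPK8, which encodes the JUN kinase JNK1, rose to 2348 ± 78.1 normalised reads in gefitinib libraries, against 983 ± 51.1 in control libraries (SD, n = 3), a difference of 1.26 ± 0.08 (SE; limma adjusted p = 4.02e-06). MAPK9, which encodes the related kinase JNK2 and was named after its values were seen, fell by 0.52, with 1261 ± 108 in gefitinib and 1801 ± 119 in control libraries (limma adjusted p = 0.00154). MAP2K4, a kinase that activates JNK, rose by 0.40, FBXW7, a ubiquitin ligase adaptor for JUN, by 0.57, and ELK1, a cofactor of the serum response factor, by 0.45. ELK3, a relative of ELK1, fell by 1.66 ± 0.10, with 1130 ± 128 in gefitinib and 3573 ± 211 in control libraries. MAPK3, which encodes ERK1, fell by 0.80, and MKL2, a coactivator of the serum response factor, fell by 0.79. MAP3K1, a kinase upstream of JNK, fell by 0.73. SRF itself, which drives FOS transcription and was named after its values were seen, had 1686, 1816 and 1774 in gefitinib libraries, against 1387, 1672 and 1767 in control libraries, groups that overlapped (limma adjusted p = 0.308).

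Among genes known as AP-1 targets from other cells, more were lower than higher. Of 24 listed, 22 were tested, and 12 fell, 3 rose and 7 did not pass, with a median log2 difference of -0.58 beside 0.10 for all genes and 22.8% of all genes called lower. Leaving out single libraries gave from 9 to 11 lower and from 2 to 4 higher. ITGA2, an integrin collagen receptor gene, fell by 1.61 ± 0.08 (SE), with 3915 ± 272 normalised reads in gefitinib and 11980 ± 615 in control libraries (SD, n = 3; limma adjusted p = 1.44e-06). HMOX1, the haem oxygenase gene, fell by 2.05 ± 0.19, with 327 ± 86.3 in gefitinib and 1331 ± 190 in control libraries, and the cyclin gene CCND1 by 1.10. The EGFR ligand gene HBEGF rose by 1.76 ± 0.10, with 2474 ± 290 in gefitinib and 727 ± 25.8 in control libraries. TIMP1, an inhibitor of matrix metalloproteinases, rose by 0.60. Whether AP-1 acts on any of these genes in PC9ER cells was not tested.

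Genes of the antioxidant response, which NRF2 activates together with small MAF proteins, did not move as a block. Of 12 tested, 3 rose, 5 fell and 4 did not pass, with a median log2 difference of -0.26, beside 28.3% of all genes called higher and 22.8% lower. The subunits of glutamate-cysteine ligase moved apart: the modifier subunit gene GCLM fell by 1.31 ± 0.16 (SE), with 4474 ± 1006 normalised reads in gefitinib and 11000 ± 1647 in control libraries (SD, n = 3), and the catalytic subunit gene GCLC rose by 0.41 ± 0.09, with 5722 ± 146 in gefitinib and 4331 ± 436 in control libraries. TXNRD1, the thioredoxin reductase gene, fell by 0.84 ± 0.11 and the iron-binding pirin gene PIR by 0.39. NQO1, a quinone reductase gene, rose by 0.33 ± 0.07 and FTL, the ferritin light chain gene, by 0.40 ± 0.12. HMOX1 belongs to this list as well.

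**Figure D5:**
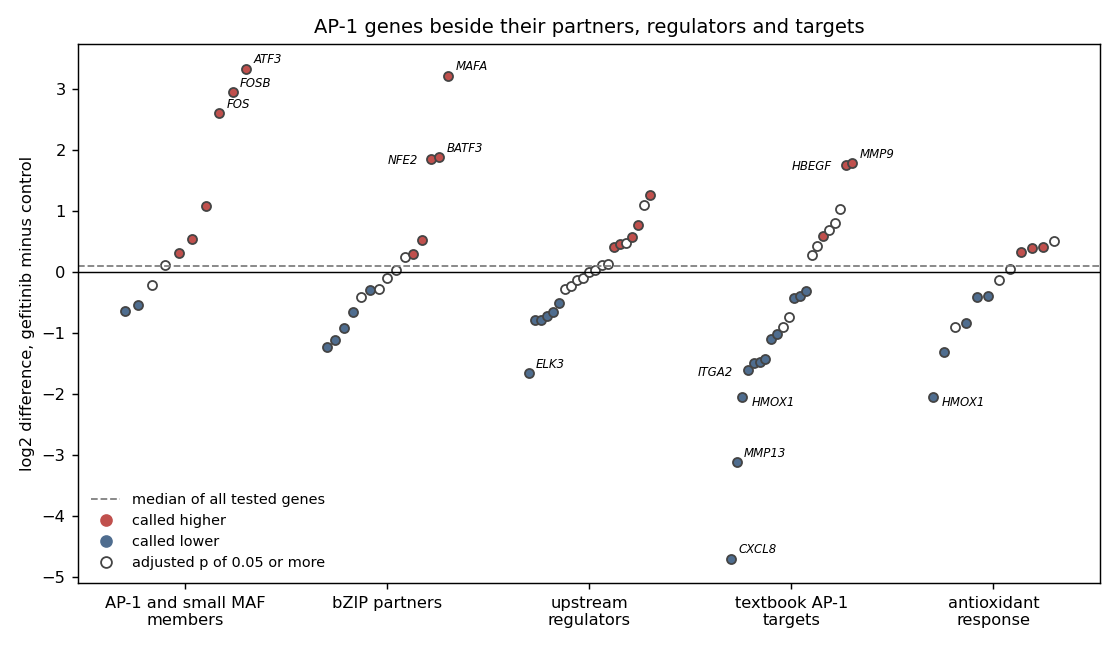
Log2 difference between gefitinib and control libraries (vertical axis) for each gene of the 5 lists, sorted within a list; red points were called higher, blue lower, and open points had a limma adjusted p of 0.05 or more. The 10 AP-1 and small MAF genes reach 3.34 while 12 of 22 textbook AP-1 targets lie below 0 and were called; MAFA and MMP9 had no control reads, so their height depends on the added constant of 1.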

How the data were processed

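Total RNA of PC9ER cells was sequenced, and the libraries were grouped by title, 3 gefitinib and 3 control. STAR, HTSeq and GRCh38 are named in the submitters' processing notes. The authors deposited a signal per coding gene: reads counted per gene and scaled so that every library has the same sum. With a tolerance of 0.01 read, 100% of its values above 0 were whole multiples of 1 step per library, which gave back the reads and the depths. A further table has 6 per-sample columns whose names match no label; they are not used. Of 15376 rows, 15229 with a value above 0 were tested on log2(value + 1) with limma-trend (limma 3.58.1, R 4.3.3); this scale understates changes of low genes. On the recovered reads, edgeR 4.0.16, DESeq2 1.42.0 and limma-voom were alternatives. The test was tried on simulated data.

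The members, gene lists and tests were chosen with earlier results of these data known. Named were all 10 members, MAFG, and from each list up to 4 genes per direction with the smallest p and a mean of at least 50. One gene that this rule names is not reported here. Lengths, GC content and positions are from GENCODE release 29 (GRCh38), matched by symbol for 96.0% of rows; a loess of span 0.3 gave the GC trend. No pair of libraries agreed within sampling noise.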

Additional observations from a re-analysis of the deposited data

How the results depend on the processing

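Besides the reported fit, 18 alternatives were run: pseudocounts of 0.5 and 5, a mean of 10 or more, TMM factors, DESeq2 size factors, the recovered reads tested by edgeR, by DESeq2 and by limma-voom, a replicate block, leaving out each library, and, chosen after seeing the data, removal of the GC trend with and without the block and edgeR with no count filter. FOS, FOSB, ATF3, FOSL2, JUN and JUND kept direction and call in all 18. The JUND call was kept narrowly with the GC trend removed (limma adjusted p = 0.0499). No call of a member reversed. FOSL1 was also called lower with the GC trend removed and the replicate block (limma adjusted p = 0.0323), where the MAFF call was lost (0.0511). MAFG was called lower in 10 of the 18. Counts of members ranged from 5 to 6 higher and from 2 to 3 lower.

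Counts of genes in the other lists moved more. Of the bZIP partners, 2 were called higher with a mean of 10 or more, by edgeR and by limma-voom, and 3 by DESeq2, against 5 in the reported fit; fewer genes were tested in the first 3. Leaving out 1 library gave from 3 to 6 partners higher and 3 to 5 lower, and from 2 to 6 regulators higher. The partners called higher were 3 without gefitinib replicate 2 or control replicate 2, and those called lower were 3 without gefitinib replicate 3 or control replicate 2 or 3. The regulators called higher were 2 without gefitinib replicate 3 and 3 without any other single library except control replicate 1. With the length of the longest transcript, FOS made up 45.6% of its family in gefitinib and 10.4% in control libraries. Over all genes, leaving out 1 library gave from 3233 to 4439 higher and from 2640 to 3857 lower. Whether replicate numbers pair the libraries could not be decided, because the correlations were small and deviations within a group of 3 are tied to each other. Same-numbered libraries had correlations of deviations of 0.127, 0.0444 and 0.0947. Control replicate 2 correlated better with gefitinib replicate 3, at 0.0862, than with its own number. With the replicate block 4438 genes were higher and 3552 lower, with 6 members higher and 2 lower, and of the members' calls none changed, while MAFG was called lower (limma adjusted p = 0.0331). The rarest genes called rest on few reads: MAFA had 37 and MMP9 had 11 in the gefitinib libraries together, and both had 0 in the control libraries.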
